A study of Homo sapiens with 15 samples.

Results

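Keratin messages, among them those of hepatocyte-like and bile-duct-like epithelium and some of other epithelia, were followed in MHCC-97H, a long-used cell line from a human hepatocellular carcinoma. The set holds 9 genes, KRT7, KRT8, KRT10, KRT17, KRT18, KRT19, KRT23, KRT80 and KRT81, taken by symbol from the 19143 gene rows of the count table, which holds 55 keratin rows in all. RNA-seq was read in 15 libraries of 5 groups with 3 biological replicates each. In the first round of sequencing MHCC-97H cells came from a 2D model, a 3D model or an animal model. In a second, additional round they came from the 3D model after heat treatment or from its treatment control, called 3D heat and 3D control here. All groups share the one cell line, and no transgene or other genetic change is named for any of them. The labels give no temperature or duration of heating and no host species for the animal model. They also do not say whether replicates were separate cultures or animals, so p-values measure the spread between these libraries.

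Keratins form the intermediate filaments of epithelial cells by pairing an acidic type I chain with a basic type II chain. KRT8 (type II) and KRT18 (type I) are the pair of hepatocytes, whereas bile duct cells add KRT7 (type II) and KRT19 (type I), and staining for the latter pair is used in pathology to recognise ductal or progenitor features in liver tumours. Of the 9 genes, 5 encode type I chains (KRT10, KRT17, KRT18, KRT19 and KRT23) and 4 encode type II chains (KRT7, KRT8, KRT80 and KRT81). KRT7, KRT8, KRT18, KRT80 and KRT81 lie in the keratin cluster on chromosome 12, and KRT10, KRT17, KRT19 and KRT23 lie in that on chromosome 17.

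The libraries held between 12605539 and 18634295 counts. Levels are given in CPM, the usual unit for counts relative to library size, scaled across the 15 libraries by edgeR's trimmed mean of M values (TMM). In 3D replicates 1 and 2 and 3D heat replicate 1, gene levels relative to the mean of the 2D libraries followed the GC content of the transcript. Rank correlations across 12157 genes were between 0.609 and 0.816, against -0.214 to 0.228 in the other 12 libraries, where each 2D library was set against the rest of 2D. These 3 also followed transcript length, at -0.475, -0.427 and -0.482 against -0.156 to 0.283 in the others, and are called GC-shifted here. TMM factors were 0.668 to 0.729 in these GC-shifted libraries and 0.983 to 1.28 in the others. Results that rest on them are therefore given with and without them. Hepatocyte markers were uneven in culture. HNF4A, a hepatocyte transcription factor, was at 81.55 to 88.2 CPM in 2D, 80.8 to 152.5 CPM in 3D and 75.3 to 112 CPM in the animal libraries. ALB, the albumin of hepatocytes, was at 1.52 to 5.16 CPM in 2D, 3D and 3D control and at 89.9 to 282 CPM in the animal libraries. EPCAM, an adhesion molecule of bile duct and progenitor cells, did not pass 1.35 CPM in any library.

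KRT8 and KRT18 made up most of the keratin RNA in every library. KRT8 took between 54.8% and 76.4% of the reads on all 55 keratin rows, and these rows together took between 0.182% and 0.797% of a library. Per kilobase of transcript, KRT8 had the highest and KRT18 the next highest mean level in each of the 5 groups. In 2D the means were 1240 CPM per kb for KRT8 and 412 CPM per kb for KRT18, and KRT10 and KRT80 followed at 10.4 and 9.83 CPM per kb with overlapping libraries. KRT7 (4.39 CPM per kb), KRT19 (3.355 CPM per kb) and KRT17 (2.36 CPM per kb) came next in 2D, each apart from its neighbour in that order, and KRT81 (0.0461 CPM per kb) and KRT23 (no read) came last. In the animal group KRT7 (51.1 CPM per kb) and KRT17 (38.6 CPM per kb) stood directly below KRT18, but the libraries of KRT7, KRT17, KRT80, KRT19 and KRT10 overlapped from each gene to the next. A bulk library cannot tell fewer cells carrying a message from less message per cell.

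**Figure D1:**
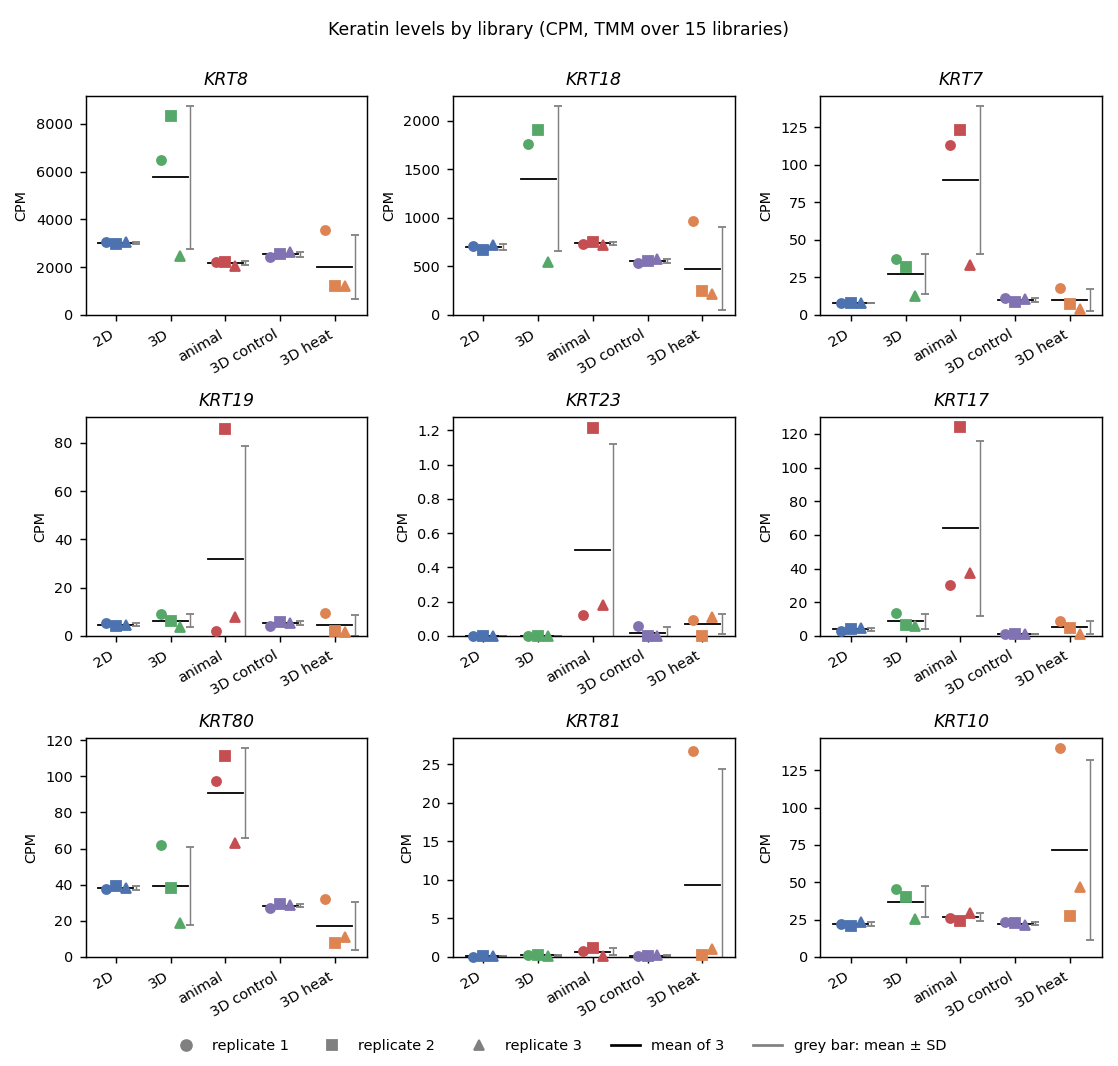
Levels of the 9 keratins in CPM (vertical axis, linear from 0) in the 15 libraries of 5 groups, with 1 point per library, the mean as a black line and mean ± SD as a grey bar whose lower end is clipped at 0. KRT7 and KRT17 are highest in the animal libraries, KRT8 and KRT18 in 3D replicates 1 and 2, and KRT10 and KRT81 in 3D heat replicate 1.

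KRT8 encodes the type II chain that forms the filament network of hepatocytes with KRT18. Its level was 3040, 2967 and 3057 CPM in the 2D libraries, 6476, 8347 and 2452 CPM in the 3D libraries and 2214, 2232 and 2062 CPM in the animal libraries. The second round gave 2438, 2539 and 2647 CPM in 3D control and 3554, 1225 and 1220 CPM in 3D heat. KRT8 was thus high in both GC-shifted 3D libraries, below 2D in 3D replicate 3 and in every animal library, and low in 3D heat replicates 2 and 3.

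KRT18, the partner of KRT8, followed the same outline. It was at 709.8, 666 and 720.4 CPM in 2D, 1763, 1908 and 546 CPM in 3D, and 734, 754 and 720.5 CPM in the animal libraries. In 3D control it was at 536, 559 and 579.7 CPM and in 3D heat at 968, 242 and 217 CPM. Unlike KRT8, KRT18 in the animal libraries was not below 2D: its lowest animal value was next to its highest 2D value.

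KRT7, the type II keratin of bile duct epithelium, was the ductal member with the clearest group pattern. It was at 7.59, 7.91 and 7.62 CPM in 2D, 37.3, 31.9 and 12.3 CPM in 3D, and 113, 123 and 32.8 CPM in the animal libraries. In 3D control it was at 11.3, 8.70 and 10.4 CPM and in 3D heat at 18.0, 7.49 and 3.855 CPM. Every 3D and every animal library was above every 2D library, whereas 3D and animal overlapped through animal replicate 3 and 3D replicate 1.

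KRT19, the type I keratin of bile ducts, was low in all libraries but 1. It was at 5.18, 4.19 and 4.62 CPM in 2D, 8.88, 6.18 and 3.49 CPM in 3D, and 1.91, 85.7 and 7.90 CPM in the animal libraries. In 3D control it was at 4.24, 5.84 and 5.45 CPM and in 3D heat at 9.45, 2.03 and 1.62 CPM. Animal replicate 2 was far above the rest and animal replicate 1 was below every 2D library. KRT23, a type I keratin described in ductular cells of diseased liver, had no read in the 6 libraries of 2D and 3D, 2, 18 and 3 reads in the animal libraries, and between 0 and 2 reads in each second-round library. Its highest count was thus in the same library as that of KRT19.

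KRT17, a type I keratin of basal and injured epithelium, was at 2.89, 4.25 and 4.56 CPM in 2D, 13.8, 6.40 and 5.69 CPM in 3D, and 30.1, 124 and 37.4 CPM in the animal libraries. It was at 1.20, 1.26 and 1.05 CPM in 3D control and 8.89, 4.88 and 1.40 CPM in 3D heat. The 3 first-round groups did not overlap, and 3D control had the lowest values of all. KRT80, a type II keratin found near desmosomes in many epithelia, was at 37.5, 39.3 and 38.05 CPM in 2D, 61.9, 38.0 and 18.8 CPM in 3D, and 97.6, 111 and 63.05 CPM in the animal libraries. All 3 animal libraries of KRT80 were above all the others, and its 3D libraries lay on both sides of 2D.

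KRT10, the type I keratin of differentiating epidermis, was at 22.2, 21.0 and 23.1 CPM in 2D and 45.8, 40.25 and 25.3 CPM in 3D. It was at 26.25, 24.0 and 29.3 CPM in the animal libraries, 23.15, 22.4 and 21.4 CPM in 3D control, and 140.1, 27.55 and 47.15 CPM in 3D heat. All 3 heat libraries were above all 3 control libraries, with the GC-shifted replicate far above the other two. The annotated span of KRT10 overlaps TMEM99 on the opposite strand, and no step that marks the strand is described, so their reads may be mixed. TMEM99 had 85, 80 and 71 reads in 3D control and 300, 159 and 157 reads in 3D heat, beside 404, 392 and 366 reads and 1498, 570 and 844 reads for KRT10. The upstream promoter of KRT10 (chr17:40822615-40822864 of GRCh38.p14, minus strand, RefSeq) is shown because all 3 heat libraries of KRT10 lay above its controls. Only 2 of the 9 genes had a promoter window among the reference sequences used, and for KRT8 the window belongs to 1 of several annotated starts and is not shown. The 250 bases before the annotated start read, with the match to the TATA box letters TATAAA in capitals:
KRT10 promoter: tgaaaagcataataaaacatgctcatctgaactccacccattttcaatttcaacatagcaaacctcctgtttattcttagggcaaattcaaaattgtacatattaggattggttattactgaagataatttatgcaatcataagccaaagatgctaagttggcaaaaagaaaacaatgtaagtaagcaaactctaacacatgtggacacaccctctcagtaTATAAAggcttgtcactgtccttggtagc
The TATAAA match begins 29 bases before the start, and 10.7% of 35116 windows of that length hold these letters on either strand. The letters of a 2-unit heat shock element (GAANNTTC, held by 5.78% of windows), which the longer 3-unit element also contains, and of a GC box (GGGCGG, 42.6%) had no match on either strand.

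KRT81, a type II keratin of hair, was near 0 in all libraries but 1. It had 1, 2 and 2 reads in 2D, 3, 3 and 3 reads in 3D, 13, 17 and 3 reads in the animal libraries, 2, 2 and 5 reads in 3D control, and 286, 4 and 19 reads in 3D heat. The 286 reads, or 26.8 CPM, were in the GC-shifted heat library. KRT81 shares much of its sequence with the neighbouring hair keratin gene KRT86, whose annotated span also overlaps it on the opposite strand. Over 1458 coding bases compared, 90.5% were identical, and 51.2% of the stretches of 50 bases, the read length, were the same in both. A pair of stretches from the GENCODE 29 transcripts is printed, since a read from the first cannot be assigned to 1 of the genes and a read from the second can. The second was sought only between the first and last identical stretches of 50 bases, so outside them a stretch can differ more. The coding bases 61 to 110 are the same in both genes, and the bases 824 to 873 are shown with their 5 differences in capitals:
KRT81 and KRT86, shared coding stretch: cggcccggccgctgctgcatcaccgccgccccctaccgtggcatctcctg
KRT81, most different coding stretch: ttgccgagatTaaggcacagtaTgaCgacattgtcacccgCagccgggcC
KRT86, most different coding stretch: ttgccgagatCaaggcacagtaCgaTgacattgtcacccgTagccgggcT
KRT86 itself had 21 reads in the heat library in which KRT81 had 286, and its counts ran from 2 to 21 over the 15 libraries. Shared words of 50 bases also made up 28.9% of the KRT18 transcript (with its pseudogenes) and 16.0% of the KRT17 transcript (with pseudogenes), against at most 1.88% for each of KRT7, KRT8, KRT10, KRT19, KRT23 and KRT80. The split of reads between KRT81, KRT18 or KRT17 and their copies is uncertain. In GENCODE 29, 7 of the 9 genes overlap another annotated gene, KRT8 and KRT18 overlapping each other on opposite strands, and KRT17 and KRT19 overlap none.

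Genes were tested with edgeR's quasi-likelihood test over all genes that passed its filter on low counts, with Benjamini-Hochberg adjustment over all of them, and a gene was called at an adjusted p below 0.05. KRT23 and KRT81 did not pass the filter in the comparisons within either round, so 7 of the 9 keratins were tested there. Between 3D and 2D only the culture model differed by label. KRT7 was 3.38-fold higher in 3D (log2 fold change 1.76 ± 0.52 (SE), edgeR adjusted p = 0.0321) and KRT10 was 1.62-fold higher (0.70 ± 0.23, edgeR adjusted p = 0.0463). These 2 of 7 keratins called, both higher, stand beside 32.9% of all 12925 tested genes called in either direction, 20.0% called higher and 12.9% called lower, so the share is near the background. KRT8 was 1.83-fold higher (log2 fold change 0.87 ± 0.36) and KRT18 1.93-fold higher (0.95 ± 0.38), with adjusted p of 0.0917 and 0.0806, and neither was called. KRT17, with no overlap between the groups (24.8% of tested genes in the higher direction), had a fold of 2.13 (adjusted p = 0.169), and KRT19 and KRT80 had log2 fold changes of 0.35 and -0.01. The median log2 fold change of the 7 tested keratins was 0.87, beside 0.03 over all tested genes. Without the GC-shifted libraries it was 0.00 over 9 keratins, beside 0.01, but that 0.00 came from KRT23, with no read in 2D or 3D. Of the 7 tested with all libraries, KRT8, KRT18, KRT19 and KRT80 then had negative log2 fold changes and KRT7, KRT10 and KRT17 positive ones.

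Both calls in 3D were lost when any 1 library of 2D or 1 of the GC-shifted 3D libraries was left out, and the fold changes kept their direction. Without any 1 of the 2D libraries neither KRT7 (log2 fold change 1.74 to 1.77, adjusted p from 0.0970 to 0.0990) nor KRT10 (0.66 to 0.73, adjusted p from 0.122 to 0.156) was called, and the calls over all genes fell from 2586 higher and 1661 lower to between 1132 and 1221 higher and between 663 and 729 lower. KRT7 and KRT10 were not called without 3D replicate 1 (log2 fold changes 1.46 and 0.53, adjusted p of 0.112 and 0.161) or 3D replicate 2 (1.64 and 0.65, adjusted p of 0.0705 and 0.0807) either. Without 3D replicate 3, KRT8 and KRT18 were called as well, with log2 fold changes of 1.22 (adjusted p = 3.22e-05) and 1.32 (adjusted p = 8.3e-06). In that setting 4558 of 13151 tested genes were called higher and 4933 lower, so most genes were called. Without the GC-shifted 3D replicates 1 and 2, which leaves a single 3D library whose spread is taken from the other groups, the hepatocyte pair turned downward. KRT8 then had a log2 fold change of -0.29 (adjusted p = 0.0323), KRT18 of -0.35 (adjusted p = 0.0145) and KRT80 of -1.02 (adjusted p = 0.0277), all 3 called lower, beside 23.6% of all tested genes. KRT7 kept a positive log2 fold change of 0.68 and KRT10 of 0.20, with adjusted p of 0.458 and 0.2675. With an offset that removes GC and length trends from each library, no keratin was called in 3D against 2D, and KRT7 was at 0.51 (adjusted p = 0.378).

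**Figure D2:**
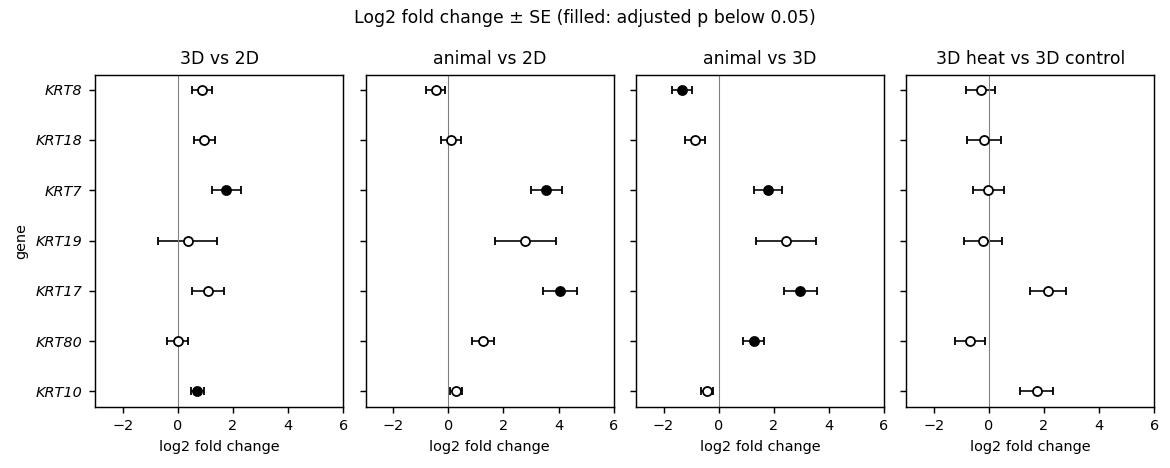
Log2 fold change ± SE (horizontal axis) of the 7 tested keratins in 4 comparisons, filled where the edgeR adjusted p was below 0.05. KRT7 and KRT17 are to the right of 0 in both comparisons of the animal model, and no gene is filled for 3D heat against 3D control.

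Against 2D, the animal model gave the largest called differences among the 9 keratins. KRT17 was 16.6-fold higher (log2 fold change 4.05 ± 0.63, edgeR adjusted p = 0.00451) and KRT7 11.8-fold higher (3.56 ± 0.56, edgeR adjusted p = 0.00453), each in all 3 animal libraries. These 2 of 7 tested keratins were called beside a background of 12.0% of all genes in either direction, 7.78% higher and 4.25% lower. KRT17 and KRT7 were called under all 15 alternatives tried, with log2 fold changes from 3.12 to 4.39 and from 3.25 to 3.95. KRT80 was 2.40-fold higher (1.26 ± 0.39, adjusted p = 0.0680) with no overlap between groups, a pattern that 32.8% of tested genes showed in the higher direction. KRT80 was called in 5 of the 15 alternatives, with adjusted p from 0.00135 to 0.201. KRT19 was 6.93-fold higher by the fit (adjusted p = 0.147), but without animal replicate 2 its log2 fold change was 0.08 (adjusted p = 0.966). KRT8 (-0.46), KRT18 (0.09) and KRT10 (0.28) had small log2 fold changes that were not called, although the groups did not overlap for any of these 3 genes, as 33.8% of tested genes did not in the lower direction. Without the GC-shifted libraries all 9 keratins passed the filter, 5 were called higher and 1, KRT8, lower (log2 fold change -0.48, adjusted p = 0.000624), beside 55.6% of all tested genes called, 28.4% higher and 27.2% lower. The 5 were KRT7, KRT17, KRT80 and, from the few reads given above, KRT81 and KRT23. KRT81 and KRT23 passed the filter there because a single 3D library remained, so that enough reads in 1 library sufficed. Animal libraries held most of their reads, so these calls rest on the group that let both genes pass and add no support.

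Between the animal model and 3D, KRT7 was 3.48-fold higher (log2 fold change 1.80 ± 0.52, edgeR adjusted p = 0.0237), KRT17 7.78-fold higher (2.96 ± 0.60, adjusted p = 0.00596) and KRT80 2.41-fold higher (1.27 ± 0.39, adjusted p = 0.0287) in the animal libraries. KRT8 was 2.52-fold lower (-1.33 ± 0.36, adjusted p = 0.0192). These 4 of 7 compare with 41.5% of all genes called, 18.6% higher and 22.9% lower, and the 3D and 2D libraries are each shared by 2 of these 3 comparisons. KRT17 was called in all 15 alternatives, with adjusted p from 4.75e-06 to 0.0261. Without animal replicate 1, KRT7 and KRT80 were not called (adjusted p of 0.0743 and 0.0781), and without animal replicate 2 likewise (0.0809 and 0.0929). KRT80 was also not called without 3D replicate 2 (adjusted p = 0.0661). KRT8 lost its call without any 1 library of either group except 3D replicate 3. Its adjusted p was 0.06055 without 3D replicate 1, 0.0507 without 3D replicate 2, between 0.0590 and 0.0652 without any 1 animal library, and 0.125 without both GC-shifted 3D libraries. In that last setting KRT18 turned to a log2 fold change of 0.42 higher in the animal model (adjusted p = 0.00648), from -0.86 with all libraries (adjusted p = 0.0920), while KRT7 (2.855), KRT17 (3.48) and KRT80 (2.26) were called higher, beside 24.6% of all tested genes.

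**Figure D3:**
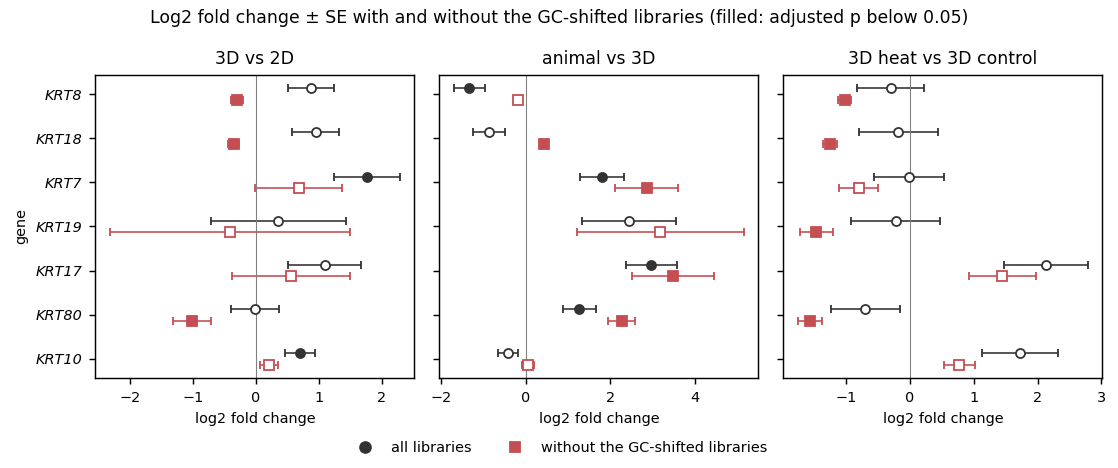
Log2 fold change ± SE (horizontal axis) of the 7 keratins in 3 comparisons, with all libraries (circles) and without 3D replicates 1 and 2 and 3D heat replicate 1 (squares), filled where the adjusted p was below 0.05. KRT8 and KRT18 move from above 0 to -0.29 and -0.35 in 3D against 2D, and KRT8, KRT18, KRT19 and KRT80 are filled below 0 for heat only without the GC-shifted library.

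After heat, none of the 7 tested keratins was called against 3D control by edgeR, where 3 of 12627 genes (0.0238%) were. At an unadjusted p below 0.05 there were 2, KRT10 and KRT17, beside 20.8% of all tested genes. KRT10 was 3.31-fold higher (log2 fold change 1.73 ± 0.60, adjusted p = 0.184) and KRT17 4.37-fold higher (2.13 ± 0.66, adjusted p = 0.1535), both with no overlap, as 16.5% of tested genes had in the higher direction. DESeq2 called these 2 (adjusted p of 0.0365 and 0.0160), but it also called 851 of the 12627 genes higher and 690 lower. The other 5 had log2 fold changes between -0.70 (KRT80) and -0.02 (KRT7), with groups that overlapped through the GC-shifted heat replicate 1, whereas 20.2% of tested genes were lower without overlap. Scaling bears on that library: KRT8 in it was 3554 CPM with the TMM factor and 2375 CPM by library total alone, against 2438 to 2647 CPM in the TMM-scaled controls.

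Without 3D heat replicate 1 the hepatocyte pair and 2 more keratins were called lower after heat. KRT8 fell by 1.03 on the log2 scale (2.035-fold, adjusted p = 0.00575), KRT18 by 1.25 (adjusted p = 0.00437), KRT19 by 1.47 (adjusted p = 0.0157) and KRT80 by 1.57 (adjusted p = 0.00682). The 4 of 7 called compare with 28.8% of 12830 tested genes called, 14.8% lower. KRT10 (0.77, adjusted p = 0.0583) and KRT17 (1.45, adjusted p = 0.0866) stayed above 0 and were not called. HSPB1, a small heat shock protein that binds intermediate filaments, was at 459 to 555 CPM in 3D control and at 9094, 628 and 1501 CPM in 3D heat, highest in the library left out.

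The 3D control libraries were made in the second round, so round and group cannot be told apart in comparisons with the first. Of 8 keratins tested, KRT81 included, none was called against 2D (0.937% of all genes were), and KRT17 alone had an unadjusted p below 0.05, beside 10.4% of all tested genes. DESeq2 called none either, and KRT17 was 3.32-fold lower (log2 fold change -1.73 ± 0.67, edgeR adjusted p = 0.3395). Neither group holds a GC-shifted library, but all 15 libraries set the spread of that edgeR fit. Without the GC-shifted libraries KRT8 (log2 fold change -0.26, from -0.25) and KRT18 were called lower, 2 of 9 keratins tested. In that setting 1658 of 13967 tested genes were called higher and 1561 lower. With only these 2 groups fitted, KRT8, KRT17, KRT18 and KRT80 were called lower and KRT7 higher, beside 3918 genes higher and 3954 lower of 12475. Against 3D of the first round, KRT17 was 7.29-fold lower (-2.87 ± 0.68, adjusted p = 0.04735), the single keratin called beside 2.54% of all genes. That call was lost without any 1 library other than 3D replicate 3, with adjusted p between 0.133 and 0.202. Without 3D replicate 3 the adjusted p was 0.00593, where 4187 of 13554 tested genes were called higher and 3534 lower. KRT8 was 2.26-fold lower than in 3D with all libraries (adjusted p = 0.104) and had a log2 fold change of 0.05 without the GC-shifted ones (adjusted p = 0.808).

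Ratios within a library need no scaling between libraries, and a KRT8 to KRT18 ratio compares the pair that forms one filament. Per kilobase it was 2.98, 3.10 and 2.95 in 2D, 2.56, 3.045 and 3.13 in 3D, and 2.10, 2.06 and 1.99 in the animal libraries. It was 3.17, 3.16 and 3.18 in 3D control and 2.55, 3.52 and 3.91 in 3D heat. The 3 animal ratios (mean 2.05 ± 0.05, SD, n = 3) were the lowest of the 15, below 2D at 3.01 ± 0.08. The 2 lowest outside the animal model were in GC-shifted libraries, 3D replicate 1 and 3D heat replicate 1. The ductal ratio of KRT7 to KRT19 was 1.32 ± 0.17 in 2D and 3.40 ± 0.65 in 3D, with all 3 libraries of 3D above all 3 of 2D. In the animal libraries it was 46.8, 1.14 and 3.30, so that the 2 bile duct keratins were in no fixed proportion there. No test was made of these ratios.

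**Figure D4:**
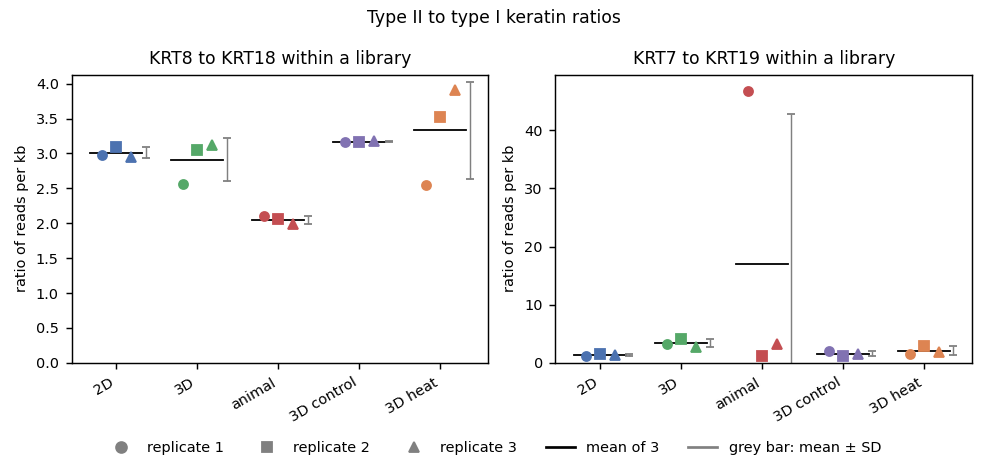
Ratio of reads per kb of KRT8 to KRT18 (left) and KRT7 to KRT19 (right), vertical axes linear from 0, with 1 point per library, the mean as a black line and mean ± SD as a grey bar clipped at 0. The 3 animal libraries lie between 1.99 and 2.10 for KRT8 to KRT18, below all other libraries, and between 1.14 and 46.8 for KRT7 to KRT19.

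Across the 15 libraries, correlations of log2(CPM + 1) describe which keratins varied together, among libraries that share depth, round and the GC shift. KRT8 and KRT18 had Pearson r = 0.941, although 50 of 9350 genes were closer to KRT8 than KRT18 was. KRT7 and KRT17 had r = 0.873, KRT7 and KRT80 0.819, and KRT7 and KRT19 0.568. KRT8 and KRT17 had r = 0.0687. The genes closest to KRT8 were TKT (0.989), CAPZB (0.987) and HDAC1 (0.972), and those closest to KRT18 were CPNE1 (0.978), APEH (0.968) and MARCKSL1 (0.966). The closest to KRT7 were TINAGL1 (0.969), MAPK13 (0.933) and SH2D3A (0.930), to KRT17 DEFB1 (0.915), PFDN6 (0.893) and AMBP (0.888), and to KRT80 GMDS (0.948), PLAU (0.945) and CYB5A (0.929). For KRT10 they were SCNM1 (0.982), ZNF408 (0.977) and RBM4 (0.976). The profiles of KRT19 (nearest CPLX2, 0.885) and KRT23 (nearest DNAJC15, 0.910) rest on animal replicate 2, and that of KRT81 (nearest GOSR2 and TM4SF1, both 0.922) on 3D heat replicate 1.

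Markers of other cells moved with the animal libraries. SOX9, a transcription factor of bile duct and progenitor cells, was at 2.89 to 3.49 CPM in 2D and 56.0, 50.5 and 47.7 CPM in the animal libraries, 16.4-fold higher (edgeR adjusted p = 0.000184). Of 14 bile duct and progenitor markers in the table, 9 were tested, 4 were called higher in the animal model than in 2D and none lower, beside 7.78% and 4.25% of all tested genes. Without the GC-shifted libraries 5 of 11 were higher and 2 were lower, ITGB4 (log2 fold change -0.47, adjusted p = 0.00336) and CLDN4 (-0.28, adjusted p = 0.0121). Their summed level overlapped, at 1397 to 1611 CPM against 1534 to 1603 CPM, and PROM1 and CFTR were among those with no read in the animal libraries. Of 14 hepatocyte markers, 13 were tested and 7 were called higher and 1 lower, or 7 and 4 without the GC-shifted libraries, with sums of 511 to 678.5 CPM against 189.5 to 205 CPM in 2D. Fibroblast and pericyte markers (5 of 6 tested called higher, of 10) summed to 163 to 458 CPM against 64.7 to 69.2 CPM, with THY1 at 0 reads. Of 10 macrophage and leukocyte markers 6 were tested and 4 called higher, with sums of 163 to 219 CPM against 103 to 110 CPM. Among them LYZ, or lysozyme, was at 2.45 to 9.09 CPM against at most 0.0534 CPM in 2D, and CD74, the invariant chain, at 18.4 to 23.8 CPM against 1.27 to 1.93 CPM, while TYROBP had 0 reads. Of 5 mesothelial markers 2 were tested and CALB2, or calretinin, was called higher (5.90-fold, edgeR adjusted p = 0.03035), with sums of 11.4 to 12.7 CPM against 2.19 to 3.435 CPM. Of 8 endothelial markers 4 were tested and TEK and KDR were called higher, with sums that overlapped, at 47.2 to 68.5 CPM against 48.3 to 60.8 CPM, and EMCN at 0 reads. Among 12 stratified epithelium markers 5 were tested, of which KRT14 and LGALS7 were called higher. Their sum was carried by SFN, or stratifin, which held 122 of 125 CPM in animal replicate 1 and 347 of 348.6 CPM in 2D replicate 1. SFN was at 122 to 160.3 CPM in the animal libraries and 322 to 347 CPM in 2D (2.26-fold lower, edgeR adjusted p = 0.113, and 2.29-fold lower, adjusted p = 0.000118, without the GC-shifted libraries), with KRT5, IVL, SPRR1B and KRT1 at 0 reads. TP63, a transcription factor of basal cells that also express KRT17, was at 1.20, 6.73 and 1.20 CPM in the animal libraries and at most 0.743 CPM in 2D. Some of these markers passed the low-count filter only through the animal libraries, where they are high. LYZ is one and KRT14 another, with 6 reads in each 2D library and 12, 35 and 24 in the animal libraries. Counts of markers called higher are therefore partly set by the filter, and calls of such genes add no support. Removal of host reads is not described, and the part of host or other cells in the keratin differences was not tested.

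In the other groups the same lists were read beside the keratins. In 3D against 2D, bile duct markers ITGB4, MUC1 and CLDN4 were called higher, 3 of 9 tested beside 32.9% of all tested genes called, so the share is near the background. Without the GC-shifted libraries, which leaves 1 3D library, they were 2.76-fold, 8.56-fold and 1.63-fold higher. The list summed to 2985 to 3558 CPM against 1534 to 1603 CPM in 2D. SOX9 was at 3.14 to 4.41 CPM in 3D (edgeR adjusted p = 0.553). Macrophage and leukocyte markers summed to 387 to 501 CPM in 3D, most of it from CD68, a lysosomal protein, at 372.5 to 477.5 CPM. CD68, ITGAM and CD74 were called higher, 3 of 6 tested beside 20.0% of all tested genes, whereas CD14 stayed at or below 0.515 CPM and AIF1 had 0 reads. Those 3 were 3.71-fold, 2.64-fold and 2.01-fold higher without the GC-shifted libraries. Of 6 tested fibroblast and pericyte markers, COL1A1 (4.69-fold, edgeR adjusted p = 0.0150) and DCN (2.79-fold, edgeR adjusted p = 0.0257) were lower in 3D, beside 12.9% of all tested genes called lower. Without the GC-shifted libraries, which leaves 1 3D library, COL1A1 was 3.90-fold lower with a wide error (log2 fold change -1.96 ± 1.26, SE). DCN was then 2.43-fold lower (-1.28 ± 0.45), and LUM of the same list was 2.045-fold higher (1.03 ± 0.23). SFN was at 598 and 638.6 CPM in the GC-shifted 3D libraries and 154.6 CPM in 3D replicate 3. It was at 1889 CPM in the GC-shifted heat library, in which KRT81 and KRT10 were highest, against 281 and 317 CPM in the other heat libraries and 224 to 286 CPM in 3D control. Their part in the keratin values was not tested.

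Genes that anchor or regulate keratin filaments changed in part. Of 16 desmosome and plakin genes, whose products tie keratin filaments to cell junctions, 14 were tested. PKP3, a plakophilin of the desmosome plaque, alone was called in 3D against 2D (2.40-fold higher, edgeR adjusted p = 0.0114), where 32.9% of all tested genes were. None was called in the animal model against 2D (12.0% of all genes), and 1 rose and 5 fell in the animal model against 3D (18.6% and 22.9%). Without the GC-shifted libraries all 16 were tested. In 3D against 2D, PKP3 was then 1.36-fold higher (adjusted p = 0.01705) and PPL, DSG2, DSG3 and DSC2 were called higher as well, beside 22.9% of all genes. In the animal model 8 were then higher and 3 lower than in 2D (28.4% and 27.2%), and 2 higher and 6 lower than in 3D (24.6% and 22.5%). The genes lower than in 3D with all libraries included JUP, or plakoglobin (4.88-fold lower, adjusted p = 0.00401), and PLEC, the plectin linker (2.72-fold lower, adjusted p = 0.00453), which were 2.615-fold and 1.75-fold lower without the GC-shifted libraries. Of 10 keratin-binding or keratin-organising genes, TRADD, an adaptor that binds KRT18, was 3.35-fold higher in 3D (adjusted p = 0.003375), and TCHP, or trichoplein, 1.87-fold lower (adjusted p = 0.009195). They were the 1 called higher and 1 called lower of 10 tested, where 32.9% of all tested genes were called. Both differed the opposite way between animal model and 3D, a comparison that shares the 3D libraries: TRADD was 4.05-fold lower (adjusted p = 0.00139) and TCHP 2.00-fold higher (adjusted p = 0.00461). Without the GC-shifted libraries TRADD was 2.04-fold higher in 3D and 2.505-fold lower in the animal model than in 3D, and TCHP 2.08-fold lower and 2.20-fold higher, all 4 called. Of 9 other intermediate filament genes tested, VIM, the vimentin of mesenchymal cells, alone was called in the animal model against 2D (3.41-fold higher, adjusted p = 0.0198), where 12.0% of all genes were. In 3D against 2D LMNB1 (2.79-fold) and SYNM (2.735-fold) were called lower and PRPH 3.58-fold higher. This 1 higher and 2 lower of 9 stand beside 32.9% of all tested genes called, so the share is near the background. Without the GC-shifted libraries, which leaves 1 3D library, log2 fold changes were -1.77 ± 0.12 (SE) for LMNB1, -1.35 ± 0.63 for SYNM and 1.70 ± 0.66 for PRPH. Median log2 fold changes of the desmosome list were 0.21, 0.29 and 0.40 in these 3 comparisons, beside 0.03, 0.03 and 0.10 over all tested genes, and 0.27, 0.39 and -0.19 without the GC-shifted libraries, so that the last turned sign. For heat against 3D control, none of the genes on these 3 lists was called with all libraries, and without 3D heat replicate 1 there were 1 higher and 6 lower of 14 desmosome genes, beside 28.8% of all tested genes called and 14.8% lower.

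SP1, the transcription factor named in the title of the study, was at 144 to 150.3 CPM in 2D, 105 to 189.8 CPM in 3D and 134 to 162 CPM in the animal libraries. It was called in none of the 6 comparisons with all libraries, with log2 fold changes from -0.14 to 0.43. Without the GC-shifted libraries SP1 was called in 3: higher in 3D than in 2D (0.37, adjusted p = 0.0271, from -0.10 with all libraries), lower in the animal model than in 3D (-0.36, adjusted p = 0.0304, from 0.13) and higher in 3D control than in 2D (0.36, adjusted p = 0.0145). Of 10 epithelial transcription factors tested, SP1 included, ELF3 was called higher in 3D than in 2D (3.71-fold, edgeR adjusted p = 0.00306), with FOXA2 (1.81-fold) higher and EHF (1.95-fold) lower. In all, 2 of the 10 were called higher and 2 lower, beside 20.0% and 12.9% of all tested genes. Without the GC-shifted libraries ELF3 was 2.39-fold higher and EHF 1.77-fold lower, both called, and FOXA2 was not called (adjusted p = 0.08245). In the animal model against 2D, FOXA1 (2.39-fold) and EHF (1.86-fold) were higher and TFAP2A (2.02-fold) lower. These were the 2 called higher and 1 called lower of 10 tested, beside 7.78% and 4.25% of all tested genes.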

How the data were processed

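The submitters deposited 1 table of raw read counts per gene for all 15 libraries, single-end reads of 50 bases per the labels' protocols. Per the submitters' processing notes HISAT2 and the hg19 build were used, and the counting tool is not given in the sources used here. Counts were tested as deposited with edgeR 4.0.16 (R 4.3.3): filterByExpr, TMM scaling, robust quasi-likelihood test, group only, Benjamini-Hochberg adjustment over all genes tested. First-round groups were fitted together (9 libraries), second-round groups together (6), and comparisons across rounds on all 15. Totals of 12605539 to 18634295 counts set the precision, and fold changes carry the spread between libraries. Length, GC content and shared words came from GENCODE 29 transcripts. The test was checked on simulated counts.

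The 9 keratins and the 11 gene lists (127 of 128 entries matched, CD24 not) were chosen with earlier results of these data known. All 9 keratins are named, with up to 3 called members of each list per comparison, the 3 genes closest to each keratin by correlation (mean of at least 10 CPM), and ALB, EPCAM, SOX9, VIM and SP1. TP63, HNF4A, SFN, TMEM99, KRT86, HSPB1 in heat and the keratins of the closing section were named after their values were seen. Alternatives were DESeq2 1.42.0, other scalings and filters, a replicate block, fewer groups or libraries, and an offset for GC content and length, fitted by natural splines. Libraries of a group differed by more than sampling noise, so none was merged. In the table, 27 entries carry date-like labels (0.168% of counts) and were left in. Some markers of the lists are not reported here.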

Additional observations from a re-analysis of the deposited data

How the results depend on the processing

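Counts of keratins called moved with the setting, and so did the background of all genes called. In 3D against 2D, DESeq2 called 3363 genes higher and 2225 lower of 12925. With only the 2 groups compared, 3751 were higher and 3538 lower of 12697 in the animal model against 2D. In 3D control against 2D these were 3918 and 3954 of 12475. Keratin counts that rose in these settings stand beside these larger backgrounds, and the cause was not tested. For 3D against 2D (2 called), DESeq2 called 4, no filter on low counts 1, only the 2 groups compared 1 and the GC and length offset 0, and leaving out 1 library gave 0 to 4. Leaving out 3D replicate 3 gave 4558 genes higher and 4933 lower of 13151. For the animal model against 2D (2 called), DESeq2 called 4 and only the 2 groups 5. The set without the GC-shifted libraries added KRT23 and KRT81 to those called, which passed its filter through the animal libraries. For the animal model against 3D (4 called), only the 2 groups gave 1 and leaving out 1 library 1 to 6. For heat (0 called), DESeq2 gave 2 and leaving out 1 library 0 to 4. For 3D control against 2D (0 called), only the 2 groups gave 5 and the set without the GC-shifted libraries 2, the latter beside 1658 genes higher and 1561 lower of 13967. For 3D control against 3D (1 called), DESeq2 gave 4, upper-quartile scaling, no filter, only the 2 groups, the set without GC-shifted libraries and the GC and length offset each 0, and leaving out 1 library 0 to 4.

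Log2 fold changes that turned sign were these. In 3D against 2D, KRT8 (-0.29), KRT18 (-0.35) and KRT19 (-0.41) turned without the GC-shifted libraries, KRT18 (-0.05), KRT19 (-0.93) and KRT17 (-0.05) with the GC and length offset, and KRT80 with DESeq2 (0.09), RLE scaling (0.09) and only the 2 groups (0.03), with -0.48 to 0.31 when 1 library was left out. In the animal model against 2D, KRT18 turned with the offset (-0.14). In the animal model against 3D, KRT18 (0.42) and KRT10 (0.06) turned without the GC-shifted libraries, and KRT19 ran from -0.26 to 3.00 with 1 library left out. In heat, KRT7 was 0.03 with DESeq2 and 0.03 with RLE scaling, and leaving out 1 library gave -0.80 to 0.37 for KRT7, -1.25 to 0.16 for KRT18 and -1.47 to 0.18 for KRT19. In 3D control against 2D, KRT10 was -0.01 with DESeq2, -0.01 with RLE scaling and -0.07 with the offset, and -0.03 to 0.04 with 1 library left out, and KRT19 was -0.07 with the offset. In 3D control against 3D, KRT8 (0.05), KRT18 (0.03), KRT19 (0.57) and KRT80 (0.60) turned without the GC-shifted libraries, KRT19 (0.86) and KRT81 (0.59) turned with the offset, and leaving out 1 library gave -0.53 to 0.10 for KRT19 and -0.81 to 0.00 for KRT80. Where 1 3D library was left after leaving out 2, it was assumed to vary like the other groups.

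Replicate numbers are shared by the groups, but correlations of same-numbered libraries ran from -0.457 to 0.233, so the numbers give no pairing. With the replicate block, 1 keratin was called in 3D against 2D and 0 in 3D control against 3D. Raw read ratios without length were 4.33, 4.18, 2.95, 4.55 and 4.785 for KRT8 to KRT18 in 2D, 3D, animal, 3D control and 3D heat, and 1.67 and 4.29 for KRT7 to KRT19 in 2D and 3D. The median log2 fold change of all tested genes was 0.10 in the animal model against 3D and in heat with TMM, and 0.21 and -0.02 with upper-quartile scaling. The background of all genes called moved too, from 1006 higher and 549 lower to 3751 and 3538 with only the 2 groups and to 1585 and 2631 with the offset in the animal model against 2D, and from 2586 and 1661 to 2044 and 2169 with the offset in 3D against 2D. For heat it moved from 1 and 2 to 851 and 690 with DESeq2 and 682 and 701 with the offset, for 3D control against 2D from 123 and 1 to 3918 and 3954 with only the 2 groups, and for 3D control against 3D from 172 and 164 to 1178 and 1992 with DESeq2 and 0 and 0 with only the 2 groups. In the animal model against 3D it moved from 2406 and 2961 to 996 and 1750 with only the 2 groups. KRT23 and KRT81 are limited by depth, with at most 18 and 19 reads in a library outside 3D heat replicate 1.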

Other observations

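KRT20, a type I keratin of intestinal epithelium, was next after KRT8 and KRT18 by read count in 2D, and was named after its values were seen. It was at 390.2, 409 and 412 CPM in 2D, 589, 519.5 and 595 CPM in 3D, and 624, 584 and 496 CPM in the animal libraries. In 3D control it was at 522, 532 and 542 CPM and in 3D heat at 112, 181 and 121 CPM. All 3 heat libraries were below every other library, and 20.2% of tested genes were lower in heat than in 3D control without overlap. The log2 fold change of KRT20 after heat was -1.91 ± 0.30 (SE) against 3D control (edgeR adjusted p = 0.0805), and -1.79 without 3D heat replicate 1 (adjusted p = 0.00593), with DESeq2 giving an adjusted p of 1.52e-08 on all libraries. KRT15, a type I keratin of basal cells, went the same way, at 26.5, 29.02 and 30.6 CPM in 3D control and 12.9, 6.33 and 4.69 CPM in 3D heat (edgeR adjusted p = 0.109, and 0.004275 without 3D heat replicate 1). In contrast to KRT8, the low KRT20 values included the GC-shifted heat library.

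KRT14 and KRT6A are keratins of stratified and stressed epithelium. KRT14 had 0, 0 and 5 reads in 3D control and 100, 26 and 25 reads in 3D heat (edgeR adjusted p = 0.123, and 0.03425 without 3D heat replicate 1). Without that library 28.8% of all tested genes were called. KRT14 passed the low-count filter only through the heat libraries, where it is high, so its test adds no support. KRT6A had 124, 14 and 37 reads in 3D heat, highest in the library in which KRT81 was highest.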
